A study of Chrysanthemum x morifolium with 40 samples.

Results

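The table of root expression of chrysanthemum (Chrysanthemum x morifolium) held 789 genes, 0.442% of its 178540 genes, that were counted in every root library of the cultivar EWT and in no root library of the cultivar CK, and whose annotation gave no match to a known protein. They were chosen by their FPKM, the number of sequenced fragments scaled by gene length and library size. A gene was taken when its FPKM was above 0 in all 20 EWT libraries and equal to 0 in all 20 CK libraries, and when its description held no Swiss-Prot protein. Below they are called the EWT-only unmatched genes. Gene names are those of the table, except that names made of novel_ and a number are written here with _ where the table, and the plots, have a point. EWT and CK values chose them, so the contrast between the cultivars is described here and not tested. Only the changes over time within EWT were tested. The rule used the EWT values in 1 way, that each had to be above 0.

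Genes without a recognisable protein match are a usual part of plant genome annotations. They include genes restricted to a lineage (orphan genes), fragments of broken or mispredicted genes, long non-coding RNAs and relics of transposable elements, and most have no known role. A gene can also be present in one cultivar and missing or altered in another, and a read can only be counted where it maps to the reference genome, so a listed 0 is an absence of counted fragments and not proof that a gene is absent or silent.

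RNA was taken from roots of seedlings 8 weeks old of EWT, a 'Hangju' cultivar named for enhanced waterlogging tolerance, and of CK ('zaoxiaoyangju'), the conventional cultivar. Seedlings of both cultivars were submerged in water to above their upper leaves. Roots were taken before flooding (0 h), after 3 h, after 12 h and after 24 h under water, and once more when 24 h of waterlogging had been followed by 3 h in air (24_3 h). Each of the 10 groups had 4 libraries, so that each cultivar had 20. Unflooded seedlings were sampled at 0 h only, so waterlogging and time since 0 h cannot be told apart in any change over time given here. By the stated hours, 24 h falls at the same time of day as 0 h, and the other time points also differ in time of day. The labels do not say whether the 4 libraries of a group came from separate seedlings or pools, so the p-values measure the spread between these libraries only, and each cultivar is a single line.

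Counted fragments ranged from 4846743 to 9929777 per EWT library (median 7526810), and from 3517588 to 7588620 per CK library (median 4868320). Genes annotated as Casparian strip membrane proteins, which mark the root endodermis, were detected for 28 of the 30 genes on that list, with a summed level between 0.587 and 89.3 FPKM in EWT libraries. In EWT this sum was 48.2 to 89.3 FPKM at 0 h, 29.6 to 69.2 at 3 h, 5.44 to 13 at 12 h, 0.587 to 8.58 at 24 h and 2.35 to 4.01 at 24_3 h. The chlorophyll a/b binding proteins, which mark green tissue, summed to 122 to 132 FPKM at 12 h in EWT, against 41.9 to 58.1 at 0 h, and the small subunits of Rubisco to 53.6 to 63.6 FPKM at 12 h, against 5.01 to 8.13 at 0 h. These marker levels moved with the time points, and their part in the changes reported below was not tested. In such bulk RNA, fewer cells of a type and less RNA per cell cannot be told apart.

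Single EWT libraries held few fragments of most of these genes, and the sum over libraries was larger. The fewest fragments of a gene in any EWT library were 1 to 132, with a median of 2. Over the 20 EWT libraries each gene had between 50 and 9689 fragments, with a median of 282. At the EWT level and the depth of the CK libraries, between 38.6 and 8793 fragments would have been counted for each of them in CK, with a median of 217.7, where 0 were counted. Against a level of 3 fragments over the 20 CK libraries, the mean EWT level was 12.9-fold to 2931-fold higher (median 72.6-fold). The genes were chosen for a CK count of 0, so these folds are a description and give no lower limit of the difference. They take account of counting error only. Of the 14457 unmatched genes above 0 in all 20 EWT libraries, the 789 were 5.46%.

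The edge of the rule was not sharp. Besides the 789 genes with 0 CK fragments, 153 unmatched genes above 0 in every EWT library had 1 CK fragment in all, 127 had 2 and 79 had 3. A further 264 unmatched genes were at 0 in all CK libraries but above 0 in 19 of the 20 EWT libraries. The members just inside were evm_TU_scaffold_731_199 with 50 EWT fragments (0.0532 to 0.534 FPKM), novel_11125 with 53 (0.229 to 4.25 FPKM) and evm_TU_scaffold_468_199 with 55 (0.375 to 4.07 FPKM). The most abundant genes just outside, each with 1 fragment in 1 CK library, were evm_TU_scaffold_10398_72 (mean 46.9 FPKM in EWT), evm_TU_scaffold_821_313 (45.5 FPKM) and novel_8 (44.6 FPKM), and 229 unmatched genes above 0 in every EWT library were above 0 in exactly 1 CK library. The mirror rule, above 0 in all CK and 0 in all EWT libraries, gave 47 unmatched genes, from libraries that were shallower. With matched genes included, 1219 genes were found in EWT only and 74 in CK only.

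Most of these genes lay outside the gene models of the published genome. Of the 789, 557 (70.6%) carried identifiers that begin with novel_ (added genes, as opposed to gene models), against 34.6% of the 13668 other unmatched genes above 0 in all 20 EWT libraries. The sources used here do not name the step that added these identifiers. The genes were short. Their median length was 790 bases (150 to 4367), against 1092 bases in the other unmatched genes. It was 871 bases for the added genes and 520.5 for the 232 gene models, against 1202 and 1036 bases in the other unmatched genes. Only 38 of the 789 were under 300 bases.

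Protein domains were rare among them. A Pfam domain was annotated for 41 (5.20%), against 25.6% of the other unmatched genes above 0 in all EWT libraries, and the remaining 748 had no description of any kind. Added genes rarely had a domain in either set, at 2.51% of the members and 3.87% of the others. For gene models the shares were 11.6% and 37.0%. Among the 41, the largest group was 5 genes with a PIF1-like helicase domain, a fold of helicases that unwind DNA and that is also carried by Helitron transposons in plants. They made up 12.2% of the members with a domain, against 0.229% of the other unmatched genes with a domain. A transposase or integrase domain was found in 3 genes (En/Spm-type in evm_TU_scaffold_927_22 and evm_TU_scaffold_4433_11, an integrase core in novel_22809), and 2 carried the Cdc27 subunit domain of DNA polymerase delta. The transposase or integrase share was 7.32% of the members with a domain, against 2.12% of the other unmatched genes with a domain. Of all members it was 0.380%, against 0.541% of the others. For Cdc27 the shares of genes with a domain were 4.88% and 0.115%. No reverse transcriptase or gag domain was annotated. Such domains were found in only 0.544% of the other unmatched genes with a domain, so a 0 among 41 says little. With so few genes per domain these shares are a description.

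Levels in EWT were mostly low. The mean over the 20 EWT libraries had a median of 2.48 FPKM (0.204 to 109), against 3.51 FPKM in the other unmatched genes, and 81 genes (10.3%) averaged 10 FPKM or more. Gene models (median 4.30 FPKM) stood above added genes (2.07 FPKM). The other unmatched genes showed the same order, with 4.62 FPKM for gene models and 2.36 FPKM for added genes. Within each class the members were thus only slightly lower, and they held more added genes. The 10 genes with the highest means, 6 gene models and 4 added genes, held 11.4% of all the fragments counted on the 789. Within a time point, the SD over the 4 libraries of a gene was typically 33.6% (3 h) to 42.1% (24_3 h) of its mean.

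The most abundant was evm_TU_scaffold_1889_65 (chromosome 3, 82898546 to 82899288, plus strand, 354 bases long). It had 44.6, 27.6, 58.6 and 47.7 FPKM at 0 h, 44.7, 42.2, 38.8 and 37.8 at 3 h, 148, 130, 120 and 153 at 12 h, 238, 238, 187 and 199 at 24 h, and 105, 64.9, 109 and 142 at 24_3 h. The libraries at 12 h and 24 h all stood above those at 0 h and 3 h, with a log2 fold change of 2.31 ± 0.22 (SE) at 24 h over 0 h (limma, adjusted p = 1.43e-08). The neighbours of this gene, 50102 bases before and 2119 bases after it, were at or near 0 in both cultivars: the first averaged 0 FPKM in EWT and 0.00606 in CK, and the second, annotated as the RNA helicase RH52B, 0.217 FPKM in EWT and 0.247 in CK.

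**Figure D1:**
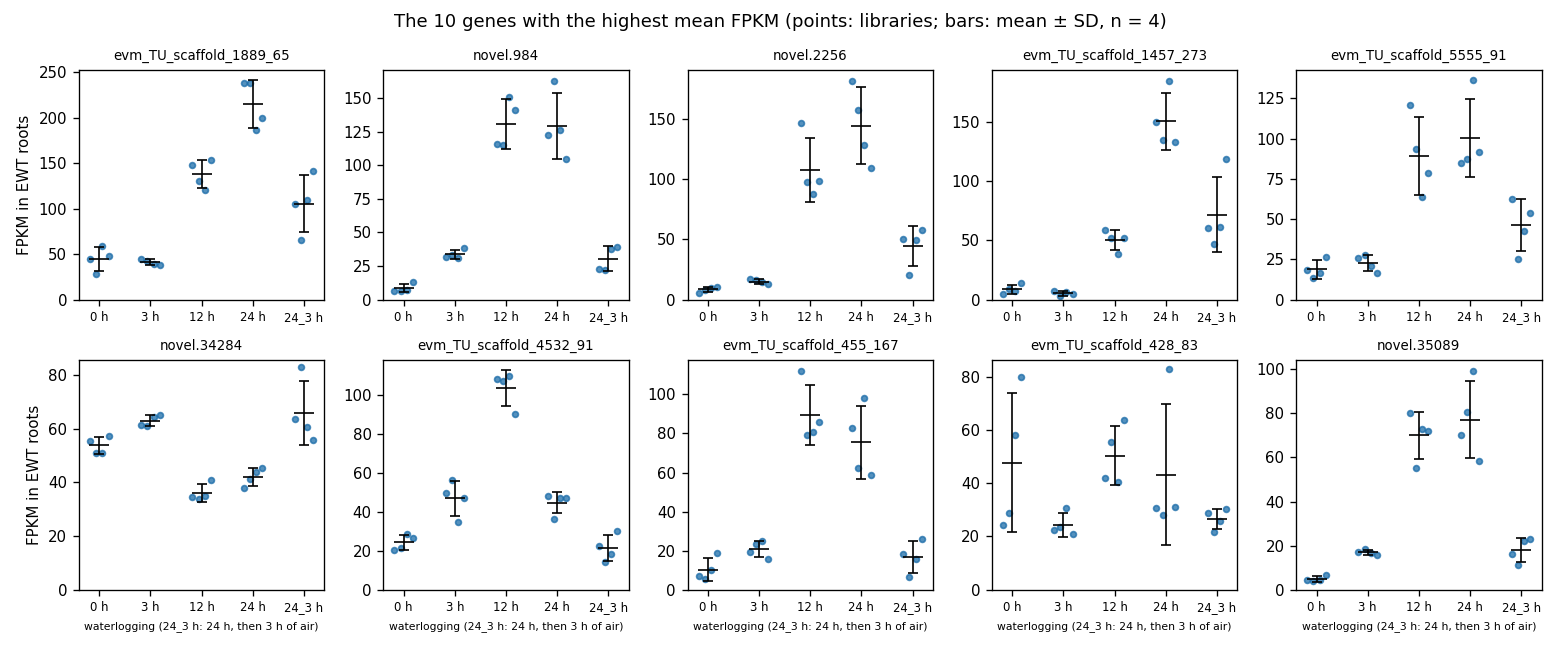
FPKM in each EWT library over the 5 time points for the 10 EWT-only unmatched genes with the highest mean level (points are libraries, bars the mean ± SD of 4); each panel has its own axis from 0. In 8 of the 10 genes the level at 12 h was called higher than at 0 h, and evm_TU_scaffold_428_83 and novel_34284 are the exceptions.

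The other genes of this list followed a small number of courses. The added genes novel_984 (chromosome 1, 45418875 to 45422573) and novel_35089 (chromosome 7, 139937309 to 139938746) were already higher at 3 h. The first had 31.8, 33.4, 30.8 and 38.4 FPKM at 3 h and 116, 115, 151 and 141 at 12 h, against 6.5, 6.60, 7.46 and 12.8 at 0 h, a log2 fold change of 2.05 ± 0.22 at 3 h (limma, adjusted p = 3.87e-07) and 4.01 ± 0.22 at 12 h (5.01e-12). The second averaged 17.0 ± 1.14 FPKM at 3 h and 77.2 ± 17.3 at 24 h, against 4.75 ± 1.31 at 0 h (SD, n = 4). The genes novel_2256 (chromosome 10) and evm_TU_scaffold_1457_273 (chromosome 4) were not called at 3 h and reached 144 ± 32.0 and 151 ± 24.0 FPKM at 24 h, against 8.50 ± 2.30 and 8.54 ± 3.77 FPKM at 0 h. At 3 h novel_2256, at 14.9 ± 1.84 FPKM, already stood above all libraries of 0 h. Its log2 fold change of 0.84 ± 0.27 (limma, adjusted p = 0.0227) was under the 2-fold limit of a call. For evm_TU_scaffold_1457_273, at 5.11 ± 1.91 FPKM at 3 h, the libraries overlapped those of 0 h. A peak at 12 h was seen in evm_TU_scaffold_4532_91 (chromosome 16), at 104 ± 9.20 FPKM, against 24.2 ± 3.92 at 0 h, and its 44.6 ± 5.53 FPKM at 24 h was below all 4 libraries of 12 h. Also called higher was evm_TU_scaffold_5555_91 (chromosome 7), which averaged 89.1 ± 24.4 FPKM at 12 h and 100.3 ± 24.3 at 24 h, against 18.7 ± 5.70 at 0 h. The last abundant gene called higher at 12 h, evm_TU_scaffold_455_167, is described with its run below. It was also called higher at 3 h, at 20.8 ± 4.24 FPKM against 10.3 ± 6.10 at 0 h, although its libraries overlapped (log2 fold change 1.16 ± 0.36, limma, adjusted p = 0.0163).

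The exceptions were not called at 12 h. novel_34284, on chromosome 6, has a cathepsin propeptide inhibitor domain (I29), the part that keeps papain-type cysteine proteases inactive until it is cleaved off. It had 34.6, 33.8, 34.7 and 40.8 FPKM at 12 h, against 55.5, 51.0, 51.0 and 57.4 at 0 h, and the groups did not overlap, but the log2 fold change of -0.58 ± 0.13 (limma, adjusted p = 0.000635) was under the 2-fold limit of a call. With the counted fragments as library size it was called lower (-1.19, adjusted p = 6.92e-07). This gene spans 135488 bases (14246112 to 14381599) for 915 bases of counted length, and the gene before it, novel_34283, is annotated as a papain-family cysteine proteinase. In evm_TU_scaffold_428_83 (chromosome 13, 177 bases long) the libraries of one time point spread more than the time points: 42.0, 55.6, 40.4 and 63.7 FPKM at 12 h, against 24.3, 28.7, 58.0 and 80.1 at 0 h, a log2 fold change of 0.22 ± 0.34 (limma, adjusted p = 0.586).

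The genes were spread over the genome. All 27 chromosomes held members, and 20 of the 789 lay on 17 scaffolds outside the chromosomes. Per 1000 genes above 0 in all 20 EWT libraries, the members numbered 15.4 in the whole genome, from 7.82 on chromosome 14 and 8.94 on chromosome 18 to 21.1 on chromosome 1 and 21.5 on chromosome 24. Coordinates are those of the deposited table, for which the sources used here name no genome build. From the start of most members (635 of 789), a window of 1 Mb held no other member. The densest windows held 5: one on chromosome 1 from 318459614, where 7 of 21 genes above 0 in all EWT libraries were found in EWT only, and one on chromosome 24 from 123040623, where 6 of 17 were.

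At short range they lay together with other genes of the same kind. Of the 788 members with a neighbour on the same chromosome or scaffold, 140 (17.8%) stood next to another gene found in EWT only, matched or not, against 1.63% of the other unmatched genes above 0 in all EWT libraries and 1.34% of the whole table. The share was 30.7% for gene models and 12.4% for added genes. It was 19.1% for the 430 matched genes found in EWT only, so it was not particular to unmatched genes. Of the 47 unmatched genes found in CK only, 0 stood next to a gene found in CK only. The table held only 74 genes found in CK only, so this 0 cannot be set beside the other shares. Most members still had a next gene with CK fragments: 677 (85.9%) stood next to a gene above 0 in at least 1 CK library, against 95.9% of the other unmatched genes above 0 in all EWT libraries and 91.4% of the whole table.

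This share dropped off over a short distance. Among genes above 0 in all EWT libraries that lay under 10 kb from a member, 143 of 465 (30.8%) were at 0 in all CK libraries. At 10 to 50 kb the share was 7.35%, at 50 to 100 kb 3.81%, at 100 to 500 kb 3.02% and at 500 to 1000 kb 2.10%, with 2.38% over all genes above 0 in every EWT library. Those neighbours under 10 kb that did have CK fragments had a median of 0.322 CK fragments for each EWT fragment, against 0.619 over all genes with CK fragments. These shares use the same contrast that chose the members and are a description.

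**Figure D2:**
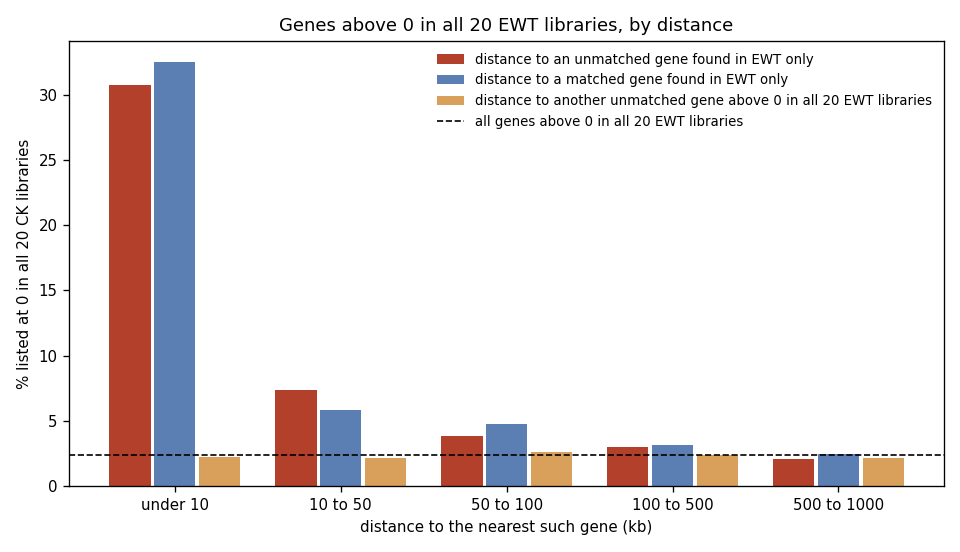
Share of genes at 0 in all 20 CK libraries (y axis, percent) among genes above 0 in all 20 EWT libraries, by distance in kb to the nearest EWT-only unmatched gene, to the nearest matched EWT-only gene and to the nearest other unmatched gene. Under 10 kb the first share is 30.8% and the second 32.5%, against 2.28% for the third, and the dashed line marks 2.38% for all such genes.

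The genes beside the abundant members show the range of neighbourhoods. Next to evm_TU_scaffold_1457_273, at a gap of 122 bases on the same strand, stood a gene annotated as a phospholipid hydroperoxide glutathione peroxidase (GPX4), an enzyme that reduces lipid peroxides, at a mean of 26.6 FPKM in EWT and 2.55 FPKM in CK, where 13 of 20 libraries were above 0. The gene after evm_TU_scaffold_4532_91, annotated as the heavy metal-associated protein HIPP03, averaged 170 FPKM in EWT and 4.46 in CK and was above 0 in all 40 libraries. Next to novel_18739, at 492 bases, novel_18738 averaged 10.2 FPKM in EWT and 0.0550 in CK. Other genes next to members did not differ in this way. The member evm_TU_scaffold_24_260 lay 1450 bases from a gene annotated as allene oxide cyclase, an enzyme of jasmonate synthesis. That gene had 41.9 FPKM in EWT and 55.3 in CK. The gene after novel_9992 averaged 8.55 FPKM in EWT and 8.26 in CK, but it lay over 50 kb away. A member overlapped another gene in 72 cases (9.13%), in 57 of them a gene on the opposite strand. These overlaps are of start to end positions, and the counted stretches within them need not overlap. The sources used here do not say whether strand was used in counting, so fragments of any shared stretch cannot be told apart.

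Neighbouring members formed 47 runs, 46 of 2 genes and 1 of 4, with 96 genes in all. In 42 of the 49 pairs of next neighbours (85.7%) both genes lay on the same strand, against 55.9% of neighbouring genes above 0 in all EWT libraries. The median gap was 341 bases, against 8002, and 36 pairs had a gap under 1000 bases. The higher of the paired genes had a median of 1.71 times the mean FPKM of the lower, and in 35 pairs the ratio was under 2. Whether the genes of such a pair share a transcript was not tested.

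The run of 4 lay on chromosome 27 from 189834456 to 189840159, all on the plus strand, with gaps of 1263, 123 and 248 bases. Its genes evm_TU_scaffold_13_121, evm_TU_scaffold_13_122, evm_TU_scaffold_13_123 and evm_TU_scaffold_13_124 averaged 9.94, 22.2, 29.8 and 15.0 FPKM in EWT, and the genes around the run stood 76353 bases before it (a WAT1-related transporter, 5.35 FPKM in EWT and 2.00 in CK) and 136993 bases after it (the ABC transporter ABCG14, 1.41 FPKM in EWT and 1.49 in CK). The third gene had 68.9, 44.8, 40.7 and 39.0 FPKM at 12 h, against 10.3, 16.9, 17.3 and 27.7 at 0 h, all higher, with a log2 fold change of 1.46 ± 0.23 (limma, adjusted p = 1.47e-05). The second gene likewise averaged 33.7 ± 8.65 FPKM at 12 h and 14.8 ± 3.90 at 0 h. The fourth, with 34.8, 20.4, 16.9 and 21.3 FPKM at 12 h and 6.79, 8.42, 14.0 and 18 at 0 h, was called higher although its libraries overlapped. Its log2 fold change of 1.03 lost the call without 0 h replicate 1 (0.80), without 0 h replicate 2 (0.91) and without 12 h replicate 1 (0.82). With the counted fragments of each library as library size, none of these 3 was called at 12 h, with log2 fold changes of 0.58 for the second, 0.86 for the third and 0.43 for the fourth, and a pseudocount of 1 FPKM also ended the call of the fourth (0.97). The first was not called at 12 h, at 15.5 ± 6.16 FPKM against 8.27 ± 3.35 at 0 h.

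Of the 46 runs of 2, those with the highest summed levels are named, a choice made after the values were known. On chromosome 14 (297925353 to 297931676) evm_TU_scaffold_455_166 had 52.4, 50.6, 46.1 and 37.2 FPKM at 12 h, against 2.68, 3.03, 2.60 and 5.44 at 0 h, a log2 fold change of 3.78 ± 0.31 (limma, adjusted p = 1.59e-09). Its partner evm_TU_scaffold_455_167, 672 bases on, had 112, 79.2, 80.9 and 85.9 FPKM at 12 h, against 6.94, 5.30, 9.90 and 19 at 0 h, a log2 fold change of 3.27 ± 0.36 (1.30e-07). Both fell at 24_3 h, to 7.22 ± 2.92 and 16.7 ± 8.05 FPKM, against 30.4 ± 8.96 and 75.4 ± 18.5 FPKM at 24 h. Another gene just before them, evm_TU_scaffold_455_165, was also at 0 in all CK libraries but missed the rule with 18 of 20 EWT libraries above 0. On chromosome 7 (123148760 to 123151023) evm_TU_scaffold_9411_201 was called higher at 12 h, at 46.8 ± 11.4 FPKM against 19 ± 4.50 at 0 h, and its partner evm_TU_scaffold_9411_200, at 31.1 ± 4.61 against 16.5 ± 6.01 FPKM, missed the 2-fold limit with a log2 fold change of 0.97 ± 0.26. With counted fragments as library size evm_TU_scaffold_9411_201 was not called either, at a log2 fold change of 0.70.

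**Figure D3:**
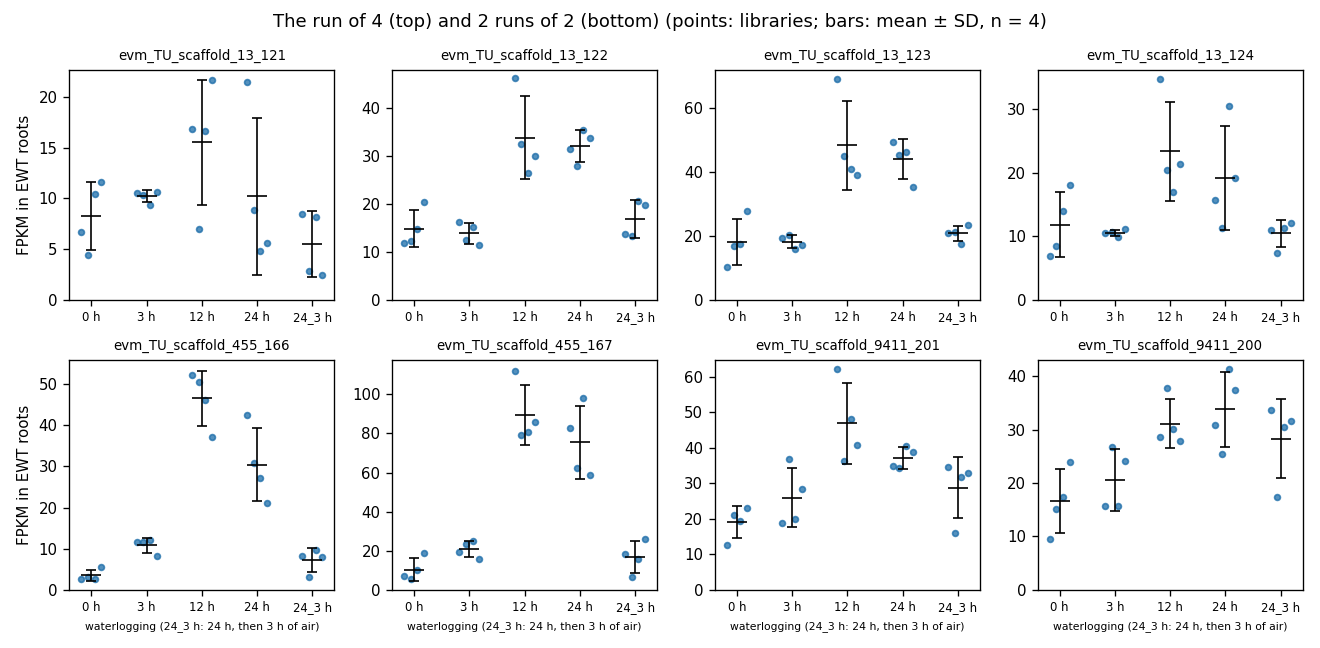
FPKM in each EWT library over the time points for the 4 genes of the run on chromosome 27 (top row) and the paired genes on chromosomes 14 and 7 (bottom row); points are libraries and bars the mean ± SD of 4, with a separate axis from 0 in each panel. The libraries of evm_TU_scaffold_455_166 lie between 37.2 and 52.4 FPKM at 12 h, against 2.60 to 5.44 at 0 h, and those of evm_TU_scaffold_9411_200 between 27.8 and 37.8 FPKM at 12 h, against 9.49 to 24.0 at 0 h.

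Of the 47 pairs with both genes tested, both were higher at 12 h in 17 pairs, both lower in 2 and opposite in 0, while 1 of the pair was called in 7 and neither in 21. Few members were lower, which leaves little room for opposite pairs. Among all 18280 pairs of neighbouring genes above 0 in all EWT libraries, 5565 had both genes called at 12 h, in opposite directions in 33.1% of them. Where such neighbours lay on the same strand with a gap under 1000 bases this was 6.19% of 856, so a shared direction was not particular to the members. At 24_3 h against 24 h both members fell in 10 pairs and moved in opposite directions in 0, where close neighbours on the same strand did so in 3.87% of 413 pairs.

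Change over time in EWT was tested for 769 of the 789 genes. The other 20, with means of 0.204 to 0.690 FPKM, did not reach 1 FPKM in 4 EWT libraries. A gene was called when limma's adjusted p over all 71699 genes tested was at most 0.05 and the change at least 2-fold on the log2(FPKM + 0.1) scale, which understates changes of low genes. Every member had to be above 0 in each EWT library, so genes that fell to 0 could not be members, and the other unmatched genes with the same requirement are given beside the background. Those other genes had more fragments, with a median of 561 over the 20 EWT libraries against 282 in the members. The requirement thus left more room for falls among them, and the sets are not fully alike. How far this shaped the shares called was not tested. All 4 comparisons with 0 h share the same 4 libraries at 0 h.

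At 12 h, 343 of the 769 genes were higher than at 0 h and 49 were lower. Over all genes tested 54.2% were called, 24.7% higher and 29.6% lower, against 44.6% and 6.37% of the EWT-only unmatched genes, and 38.7% and 15.5% of the 13146 other unmatched genes above 0 in all EWT libraries. Of the 411 matched genes found in EWT only that were tested, 34.8% were higher and 10.9% lower. The median log2 fold change was 0.90 in the EWT-only unmatched genes and -0.16 in all genes tested. The library size used in the deposited FPKM values was 0.762 to 0.838 of the counted fragments at 12 h and 1.15 to 1.29 at 0 h, so the level of all genes depends on it. With the counted fragments as library size, 238 genes were higher and 96 lower (71.3% of the calls higher, against 87.5%), where 16.9% of all genes were called higher and 41.3% lower. The median of all genes was then -0.79, and the members' median of 0.32 lay 1.11 above it, against 1.06 above it with the deposited values.

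At 24 h, 331 genes were higher and 40 lower, 43.0% and 5.20% of those tested, with a background of 23.4% called higher and 29.8% called lower. In the other unmatched genes above 0 in all EWT libraries these shares were 35.7% and 15.3%. In the matched genes found in EWT only they were 34.8% and 12.4%. With counted fragments as library size 264 members were higher and 67 lower (79.8% of the calls higher, against 89.2%), where 17.5% of all genes were higher and 38.6% lower. In all, 288 genes (37.5%) were higher at both 12 h and 24 h, against 31.5% of the other unmatched genes and 19.6% of all genes tested. Another 55 (7.15%) were higher at 12 h and not called at 24 h, against 7.15% of the other unmatched genes and 5.01% of all, and 43 (5.59%) were higher at 24 h and not called at 12 h, against 4.21% and 3.73%. A rise of at least 4-fold was called for 197 genes (25.6%) at 12 h, against 20.9% of the other unmatched genes and 15.1% of all, and for 176 (22.9%) at 24 h, against 18.2% and 13.8%. The highest mean of the 5 time points was at 12 h for 320 of the 789 genes (40.6%) and at 24 h for 283 (35.9%), against 34.2% and 26.3% of the other unmatched genes and 25.0% and 21.3% of all genes above 0 in every EWT library. Higher calls at 12 h were found on all 27 chromosomes, from 33.3% of the tested members on chromosomes 2 and 8 to 64.0% of 25 on chromosome 20. Of the added genes 46.1% were called higher at 12 h and 4.77% lower, and of the gene models 41.1% and 10.3%; the difference between them was not tested.

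At 3 h fewer had moved. There 99 genes were higher and 50 lower than at 0 h, with a background of 11.7% called higher and 14.8% called lower, so the share of rises (12.9%) was near the background. Of the other unmatched genes above 0 in all EWT libraries 15.9% were higher and 8.84% lower, beside 12.9% and 6.5% of the members. Of the matched genes found in EWT only 9.98% were higher and 12.4% lower. With counted fragments as library size 87 members were higher and 70 lower (55.4% of the calls higher, against 66.4%), where 10.02% of all genes were higher and 18.7% lower. Without 0 h replicate 4 there were 31 lower genes in place of 50, and over all genes tested 8168 of 69443 in place of 10587 of 71699. The share of all counted fragments that fell on the 789 genes had a median of 0.217% at 0 h and 0.221% at 3 h, then of 0.375% at 12 h and 0.405% at 24 h, and of 0.278% after reoxygenation, and the lowest library at 12 h (0.328%) and at 24 h (0.399%) stood above the highest at 0 h (0.275%).

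**Figure D4:**
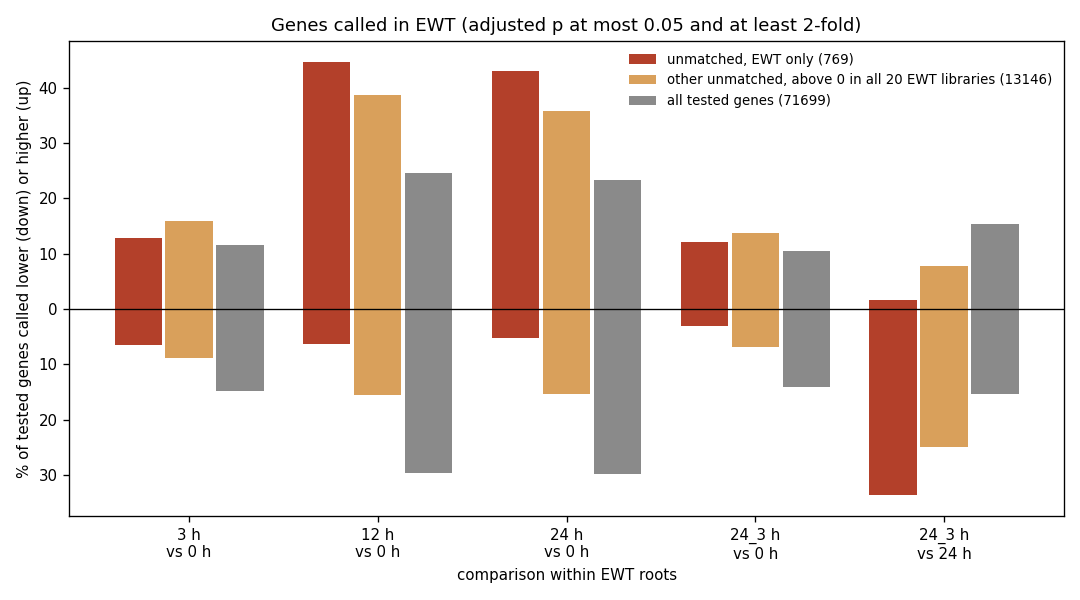
Percent of tested genes called higher (upward bars) or lower (downward bars) in 5 comparisons within EWT, for the 769 EWT-only unmatched genes tested, the 13146 other unmatched genes above 0 in all 20 EWT libraries and all 71699 genes tested. At 12 h 44.6% of the EWT-only unmatched genes were higher and 6.37% lower, against 24.7% and 29.6% of all genes.

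The largest rises were from very low levels. novel_9992 (chromosome 15, 56022772 to 56024606, minus strand, 1650 bases long) led the rises in all 4 comparisons with 0 h. It had 0.266, 0.335, 0.183 and 0.292 FPKM at 0 h, 5.71, 4.42, 9.19 and 6.22 at 3 h, 75.1, 50.3, 49.0 and 44.0 at 12 h, 57.0, 38.7, 63.5 and 31.0 at 24 h, and 6.53, 4.25, 7.51 and 10.5 at 24_3 h. No library of a later time point overlapped those at 0 h. The mean at 12 h was 203 times that at 0 h, and the log2 fold change was 7.20 ± 0.28 (limma, adjusted p = 2.77e-14; two-sided exact permutation p = 0.0286, the smallest that 4 against 4 libraries allow). It stood alone, with the next genes 59472 and 52057 bases away.

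novel_25298 (chromosome 24, 67592839 to 67599080, minus strand) had 33.6, 39.1, 55.6 and 48.5 FPKM at 12 h, against 0.549, 0.193, 0.420 and 0.201 at 0 h, a log2 fold change of 6.71 ± 0.34 (limma, adjusted p = 1.41e-12). It lies wholly within novel_24440 on the opposite strand, which averaged 2.49 FPKM in EWT and 0.0115 in CK. Fragments of any stretch counted for both genes cannot be told apart. novel_18739 (chromosome 20, 18717088 to 18718224) was not called at 3 h. It had 44.8, 37.7, 37.8 and 51.1 FPKM at 12 h and 91.7, 63.1, 43.9 and 40.8 at 24 h, against 0.449, 1.30, 0.644 and 1.11 at 0 h, a log2 fold change of 5.55 ± 0.48 at 12 h (limma, adjusted p = 4.31e-09) and 5.96 ± 0.48 at 24 h (1.73e-09). An early rise was seen in novel_26429 (chromosome 25, 182102795 to 182106157), which lies between a gene annotated as the replication licensing factor MCM2 and a SNARE-associated Golgi protein gene. It had 6.52, 10.2, 8.98 and 4.47 FPKM at 3 h, against 0.213, 0.336, 0.122 and 1.29 at 0 h, a log2 fold change of 4.01 ± 0.44 (limma, adjusted p = 4.75e-07).

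Falls were fewer, and evm_TU_scaffold_1822_37 was among the 3 largest in each comparison with 0 h. This gene (chromosome 2, 200088361 to 200091533) had 0.555, 0.660, 3.19 and 1.53 FPKM at 3 h and 0.942, 0.306, 0.389 and 1.04 at 12 h, against 6.19, 12.7, 19.1 and 26.7 at 0 h, a log2 fold change of -3.48 ± 0.55 at 3 h (limma, adjusted p = 5.02e-05) and -4.36 ± 0.55 at 12 h (9.62e-07). Its 4 libraries at 0 h spread over more than 4-fold, yet none came as low as any later library. evm_TU_scaffold_1028_218 (chromosome 17, 313895389 to 313899866), with a domain of unknown function (DUF1475), lies between genes annotated as shikimate O-hydroxycinnamoyltransferase, which were at 0 in all libraries. It fell the most at 24 h, with 0.204, 0.204, 2.16 and 0.276 FPKM, against 31.0, 17.4, 17.1 and 15.2 at 0 h, a log2 fold change of -5.20 ± 0.49 (limma, adjusted p = 1.50e-08). It was still low at 24_3 h, at 0.997 ± 0.439 FPKM.

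novel_37542 (chromosome 9) had 0.490, 0.531, 0.405 and 0.360 FPKM at 12 h, against 5.07, 4.65, 7.26 and 7.82 at 0 h, a log2 fold change of -3.50 ± 0.32 (limma, adjusted p = 9.53e-09). evm_TU_scaffold_11780_111 (chromosome 24, 3540 bases long) averaged 0.354 ± 0.145 FPKM at 12 h and 4.77 ± 1.01 at 0 h, and stood 56 bases before another member, evm_TU_scaffold_11780_112. At 3 h evm_TU_scaffold_1208_90 (chromosome 9) averaged 0.565 ± 0.405 FPKM, against 3.80 ± 0.904 at 0 h, and novel_23336 (chromosome 23) 0.477 ± 0.196, against 3.61 ± 1.38. The low levels of novel_23336 did not last: it was 2.75 ± 0.746 FPKM at 24 h, and was not called against 0 h there. evm_TU_scaffold_24_260 (chromosome 4) was lower at 24_3 h, at 1.78 ± 1.06 FPKM against 7.36 ± 0.861 at 0 h, with a log2 fold change of -2.25 ± 0.40 (limma, adjusted p = 0.000186). At all 4 later time points 6 genes (0.780%) were lower, against 2.69% of the other unmatched genes and 7.19% of all genes tested, and 44 (5.72%) were higher, against 7.61% and 5.76%.

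**Figure D5:**
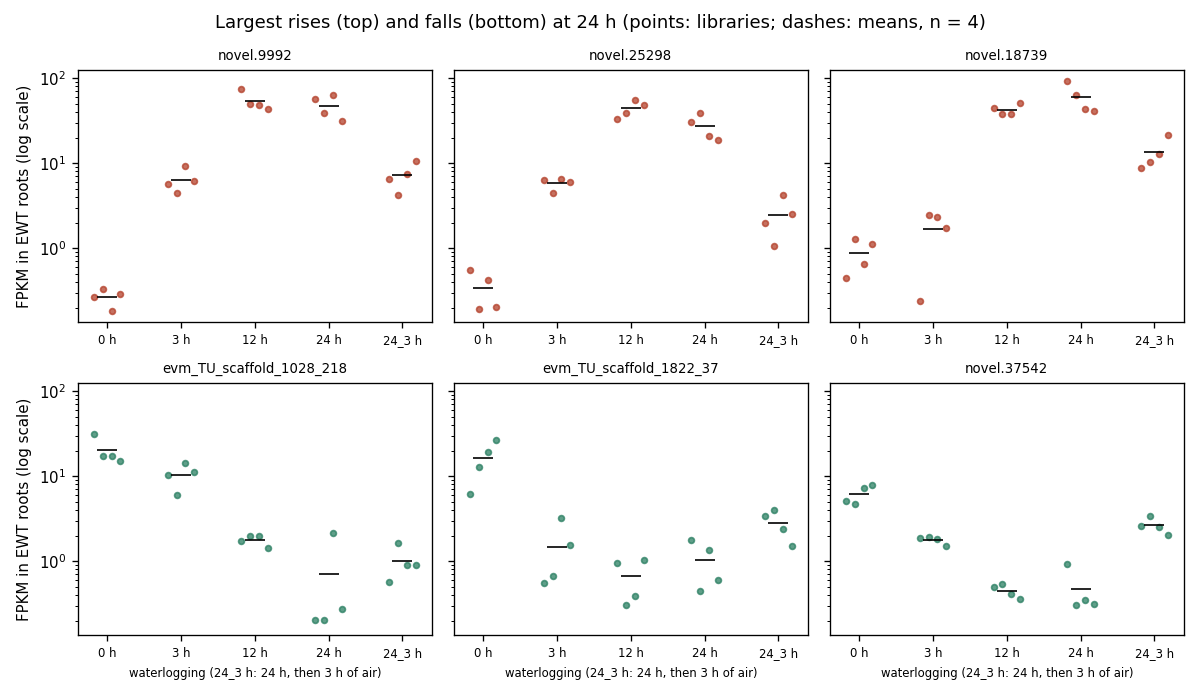
FPKM on a log scale in each EWT library over the time points for the 3 genes with the largest rises (top) and the 3 with the largest falls (bottom) at 24 h among calls whose libraries did not overlap; dashes are means of 4. At 24 h novel_9992 has 31.0 to 63.5 FPKM, against 0.183 to 0.335 at 0 h, and evm_TU_scaffold_1028_218 has 0.204 to 2.16 FPKM, against 15.2 to 31.0 at 0 h.

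After 3 h of reoxygenation lower calls outnumbered higher ones. At 24_3 h, 258 of the 769 genes were lower than at 24 h and 13 were higher, 33.6% and 1.69%, with a background of 15.4% called lower and 15.3% called higher. Of the other unmatched genes above 0 in all EWT libraries 24.9% were lower and 7.82% higher. Of the matched genes found in EWT only 25.8% were lower and 1.95% higher, so the scarcity of rises was not particular to unmatched genes. With counted fragments as library size, 158 members were lower and 42 higher (21% of the calls higher, against 4.80%), where 8.46% of all genes were lower and 25.6% higher, and the members' median lay 0.79 below that of all genes in both cases. Of the 331 genes higher at 24 h than at 0 h, 223 (67.4%) were lower at 24_3 h than at 24 h. The same was called for 61.3% of the other unmatched genes and 55.2% of all genes that were higher at 24 h. Both comparisons share the 24 h libraries. Against 0 h, 93 genes were still higher at 24_3 h and 24 lower (background 10.5% higher and 14.1% lower), 12.1% and 3.12% of those tested, against 13.8% and 6.91% of the other unmatched genes. Of the 331, 91 (27.5%) were among the higher ones, against 36.6% of the other unmatched genes and 40.9% of all genes that were higher at 24 h. By unadjusted p with the same fold these were 121 and 45, where 28.8% of all genes were called. Thus evm_TU_scaffold_1457_273 kept 60.0, 47.0, 61.0 and 118 FPKM at 24_3 h, against 4.68, 8.61, 7.25 and 13.6 at 0 h, a log2 fold change of 3.06 ± 0.31 (limma, adjusted p = 1.88e-07). In contrast evm_TU_scaffold_4532_91, at 21.2 ± 6.72 FPKM at 24_3 h and 24.2 ± 3.92 at 0 h, was not called (log2 fold change -0.23 ± 0.20, limma, adjusted p = 0.412). Of the 40 genes lower at 24 h than at 0 h, 11 (27.5%) were higher at 24_3 h than at 24 h. The same was called for 44.4% of the other unmatched genes and 46.7% of all genes that were lower at 24 h. Here too both comparisons share the 24 h libraries. Among the named genes novel_37542 had the largest such rise: 2.59, 3.39, 2.51 and 2.02 FPKM at 24_3 h, against 0.924, 0.308, 0.349 and 0.312 at 24 h, a log2 fold change of 2.35 ± 0.32 (limma, adjusted p = 1.42e-05).

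The genes with a protein domain, named here outside the rule for named genes and after their values were known, moved in both directions. Of the 41, 37 were tested. At 12 h 14 were higher and 4 lower, where 24.7% and 29.6% of all genes were called, at 24 h 17 were higher and 6 lower (23.4% and 29.8%), and at 24_3 h 11 were lower than at 24 h (15.4%). Of the PIF1-like helicase genes, 3 were higher at 12 h and 24 h and fell again at 24_3 h. novel_3731 (chromosome 11, 4115 bases long) had 4.34, 4.51, 6.40 and 4.79 FPKM at 24 h, against 0.938, 1.32, 1.42 and 1.60 at 0 h, a log2 fold change of 1.85 ± 0.26 (limma, adjusted p = 4.03e-06). novel_15814 (chromosome 19) averaged 3.95 ± 0.274 FPKM at 12 h and 0.940 ± 0.695 at 0 h, and novel_18744 (chromosome 20) 3.25 ± 2.11 FPKM at 12 h and 0.506 ± 0.131 at 0 h.

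The other PIF1-like genes differed from these. novel_39384, on a scaffold outside the chromosomes, was not called at any time point. novel_26676 (chromosome 25, 4162 bases long) was too low to be tested, with 0.115, 0.225, 0.143 and 0.0846 FPKM at 12 h, all below its 0.927, 1.06, 1.52 and 1.97 FPKM at 0 h. The En/Spm-type transposase gene evm_TU_scaffold_927_22 (chromosome 13) was lower at 3 h, with 3.23, 2.80, 3.09 and 2.78 FPKM against 5.46, 10.6, 9.09 and 10.5 at 0 h, a log2 fold change of -1.51 ± 0.36 (limma, adjusted p = 0.00286), and the integrase-domain gene novel_22809 (chromosome 23) was higher there, at 5.07 ± 1.31 FPKM against 1.90 ± 0.697 at 0 h. The gene with a Macro domain, a fold that binds ADP-ribose, evm_TU_scaffold_1165_115 (chromosome 23), was also higher, with 50.8, 43.4, 35.6 and 48.6 FPKM at 12 h, against 5.66, 6.61, 5.59 and 12.8 at 0 h, a log2 fold change of 2.60 ± 0.27 (limma, adjusted p = 4.80e-08). The largest rise among the domain genes at 12 h was that of evm_TU_scaffold_325_212 (chromosome 3), whose domain is named for weak chloroplast movement under blue light. It had 35.6, 24.2, 27.6 and 33.1 FPKM at 12 h, against 2.68, 1.25, 1.02 and 1.53 at 0 h, a log2 fold change of 4.21 ± 0.32 (limma, adjusted p = 4.87e-10).

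The longest members were all added genes and moved apart from one another. novel_27732 (chromosome 26, 4367 bases) averaged 1.69 ± 0.212 FPKM at 12 h and 0.303 ± 0.0749 at 0 h, and overlaps novel_28276 on the opposite strand, which was at 0 in every library. novel_17905 (chromosome 2, 4339 bases) averaged 0.371 ± 0.139 FPKM at 24 h and 2.06 ± 0.692 at 0 h, a log2 fold change of -2.19 ± 0.36 (limma, adjusted p = 2.52e-05), and lay 538 bases from a gene annotated as an arginine-tRNA ligase, which was at 0 in all CK libraries and above 0 in 13 EWT libraries. novel_1922 (chromosome 10, 4317 bases over a span of 53174) was not called in any comparison, with 3.61 ± 0.731 FPKM at 24 h and 3.74 ± 0.436 at 0 h. With counted fragments as library size it was called lower at 12 h, at a log2 fold change of -1.29 (adjusted p = 0.000341), against -0.70 with the deposited values. Over the 4 comparisons with 0 h, 283 of the 769 genes (36.8%) were called in none, against 33.1% of the other unmatched genes and 31.9% of all genes tested.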

How the data were processed

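Roots of 2 cultivars were sequenced at 5 time points with 4 libraries each. The authors trimmed reads with fastp, mapped them with HISAT2 2.0.5 to the published chrysanthemum genome, counted them with featureCounts 1.5.0-p3 (programs and versions per the submitters' processing notes) and deposited FPKM per gene. The deposited FPKM multiplied by gene length gave whole fragments for 100% of values within 0.01 fragment, which gave the depths of the libraries. Gene length and position, in bases, and annotation are as deposited. The sources used here name no strand setting for the counting.

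Members were chosen by FPKM as stated with the results. The members, the gene groups and the tests were chosen with earlier results of these data known. Time changes were tested with limma 3.58.1 in R 4.3.3 on log2(FPKM + 0.1) in the 20 EWT libraries alone, 1 mean per time point and an intensity trend, for 71699 genes with at least 1 FPKM in at least 4 libraries, with Benjamini-Hochberg adjustment. CK libraries were left out because members are 0 there, which would shrink the estimated spread. Exact permutation tests used scipy 1.17.1. The procedure was tested on simulated data in which a small set of well-counted genes changed. It therefore does not cover genes with few fragments, or a change in most genes.

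Named genes were the 10 with the highest mean, the 3 largest rises and falls per comparison with 0 h among calls without overlap, the 3 members just inside the rule and the 3 genes just outside it, the 3 longest, and the 3 longest runs, with their neighbours. Runs tied in length were ordered by summed mean FPKM, which was decided after the data were seen. The alternatives tried are given with their effect in the closing section.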

Additional observations from a re-analysis of the deposited data

Results flagged for a closer look

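For each named gene at each time point, the highest or lowest of the 4 libraries was compared with the other 3, and was singled out when its gap to the nearest of them exceeded the 95% critical share of the whole range (Dixon's test). This was met in 17 of 170 groups, where chance gives about 1 in 20. At 0 h, novel_984 had 12.8 FPKM in replicate 4, against 6.5 to 7.46 in the others. novel_35089 had 6.69 FPKM in replicate 4, against 3.82 to 4.28 in the others. evm_TU_scaffold_1028_218 had 31 FPKM in replicate 1, against 15.2 to 17.4 in the others. evm_TU_scaffold_24_260 had 8.66 FPKM in replicate 3, against 6.92 to 6.95 in the others. evm_TU_scaffold_455_166 had 5.44 FPKM in replicate 4, against 2.6 to 3.03 in the others. At 3 h, evm_TU_scaffold_1208_90 had 1.17 FPKM in replicate 2, against 0.332 to 0.421 in the others. evm_TU_scaffold_455_166 had 8.12 FPKM in replicate 4, against 11.5 to 12.1 in the others. At 12 h, novel_34284 had 40.8 FPKM in replicate 4, against 33.8 to 34.7 in the others. evm_TU_scaffold_4532_91 had 90.1 FPKM in replicate 4, against 107 to 110 in the others. evm_TU_scaffold_1208_90 had 2.62 FPKM in replicate 4, against 1.03 to 1.07 in the others. At 24 h, evm_TU_scaffold_5555_91 had 136 FPKM in replicate 3, against 85.1 to 92 in the others. evm_TU_scaffold_4532_91 had 36.4 FPKM in replicate 2, against 46.9 to 48.3 in the others. evm_TU_scaffold_428_83 had 83.1 FPKM in replicate 3, against 28.1 to 31.1 in the others. novel_37542 had 0.924 FPKM in replicate 1, against 0.308 to 0.349 in the others. evm_TU_scaffold_1028_218 had 2.16 FPKM in replicate 3, against 0.204 to 0.276 in the others. At 24_3 h, novel_26429 had 10.2 FPKM in replicate 4, against 3.56 to 4.33 in the others. evm_TU_scaffold_9411_201 had 15.8 FPKM in replicate 2, against 31.7 to 34.5 in the others.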

How the results depend on the processing

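With a pseudocount of 1 FPKM, 65 of the 769 genes were higher and 25 lower at 3 h, beside 5850 and 8188 of all 71699 genes. At 12 h 29 were lower and at 24 h 24, beside 16430 and 16579 of all. At 24_3 h against 0 h 50 were higher and 13 lower, beside 4862 and 8407 of all. Higher at 24_3 h than at 24 h were 5, beside 5603 of all. With library sizes from all counted fragments, 96 were lower at 12 h and 67 at 24 h, beside 41.3% and 38.6% of all genes. At 24_3 h against 24 h 42 were higher and 158 lower, beside 25.6% and 8.46% of all. At 24_3 h against 0 h 45 were lower with unadjusted p and 45 with all 40 libraries in the model. Of all 71699 genes 12102 and 9673 were lower there. At 24_3 h against 24 h 21 and 23 were higher, beside 12752 and 10701 of all. Leaving out 1 library gave 83 to 105 higher and 31 to 55 lower at 3 h, 311 to 347 and 40 to 49 at 12 h, 302 to 334 and 31 to 41 at 24 h, 69 to 115 and 19 to 32 at 24_3 h against 0 h, and 11 to 19 and 210 to 275 at 24_3 h against 24 h. Of all genes tested (69358 to 71287), 7617 to 8322 were then higher and 7579 to 10363 lower at 3 h. At 12 h these were 16677 to 17642 and 18349 to 20932, and at 24 h 15879 to 16737 and 18512 to 21394. At 24_3 h they were 6722 to 7876 and 7327 to 10252 against 0 h. Against 24 h they were 8763 to 11691 and 9390 to 11480. Without any filter on low values all 789 genes were tested, and 330 were higher and 45 lower at 12 h. Of all 138564 genes then tested, 19388 were higher and 30293 lower. The cause of these shifts was not tested.

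The replicate numbers do not pair the libraries: the deviations of same-numbered libraries correlated at -0.0892 to 0.0545, with 0 of 40 pairs above 0.1, and 3 of 20 libraries correlated best with their own number. With a replicate block 340 genes were higher and 49 lower at 12 h, beside 17670 and 21161 of all 71699 genes, and no count of members moved by over 1.5 times.

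The number of members was 748 to 1148 under other forms of the rule. A gene found in EWT only lay within 100 kb of 23.3% of members, where 17.8% had one as the next gene. Of 703 values for named genes under the alternatives, 685 kept direction and call. Most named genes were picked for high levels or large changes in these same data, so this says little about the other members. evm_TU_scaffold_428_83 at 12 h, which was not called, changed sign to -0.38 with counted fragments and to -0.045 without 0 h replicate 1, within a range of -0.045 to 0.53 over the libraries left out. Low levels limit what can be seen: the lowest members rest on 50 to 55 fragments over 20 libraries.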
